A study of Mus musculus with 8 samples.

Results

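The genes described here are 48 genes of the transforming growth factor beta (TGF-beta) and bone morphogenetic protein (BMP) pathway, chosen by name: 11 ligands, 13 receptors and coreceptors, 6 signal-carrying Smads, 7 inhibitory Smads, ubiquitin ligases and corepressors, 7 secreted antagonists and follistatins, and 4 Id genes. Their probes were found by gene symbol among the 15967 genes that the Mouse Ref-8 V1.1 chip of Illumina names. Of the 48, 44 had a probe, 56 probes in all, since 36 genes had 1 probe and 8 had several. Inhba, Smad5, Smad9 and Smad6 had no probe under their symbols and were not analysed here.

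RNA came from 3 lines of Flp-In-3T3 cells, mouse embryonic fibroblasts with a landing site for an insert. The Pax6 line carried the mouse Pax6 cDNA, the Pax6(5a) line the cDNA of the splice form with an extra exon in the DNA-binding paired domain, and the control line, unmodified Flp-In-3T3 cells, no insert. The Pax6 line was read at passages 9 and 15 (2 arrays), the Pax6(5a) line at passage 8 (2 arrays) and passage 13 (1 array), and the control line on 2 preparations from passage 13 plus 1 from passage 19. All lines grew in DMEM with serum and had no treatment before harvest, but both insert lines were kept in hygromycin and the control line in Zeocin. Each insert is represented by a single line, so the insert, the line, its antibiotic and its passage numbers cannot be told apart. Whether preparations of the same passage were separate cultures is not stated, and p-values measure only the spread between these arrays. In bulk RNA, fewer cells of a type and less RNA per cell cannot be told apart.

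TGF-beta family ligands are secreted dimers that bring together type II and type I receptor kinases. TGF-beta and activin receptors phosphorylate Smad2 and Smad3, BMP receptors phosphorylate Smad1, Smad5 and Smad9, and both kinds of Smad enter the nucleus with Smad4 and bind DNA. Secreted antagonists hold ligands away from receptors, and inhibitory Smads, Smurf ligases and corepressors limit the signal inside the cell. In fibroblasts TGF-beta is best known for inducing matrix and contractile genes, and BMP for inducing the Id genes.

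Values are log2 quantile-normalized signals. A deposited detection p-value under 0.01 was taken to mean that the probe was detected on that array. Changes were tested with limma, with Benjamini-Hochberg adjustment over all 24613 probes of the array, and a probe is called where the adjusted p was under 0.01 and the fold change at least 1.5. The arrays detected between 10083 and 10685 probes each. Of 12 fibroblast markers 9 were detected on all 8 arrays and only Fap on none, while all 7 epithelial markers were detected on no array. Of 6 endothelial markers only Cdh5 was detected, and of 4 leukocyte markers with a probe only Cd14. The mean log2 signal over the fibroblast probes was 9.31 on both Pax6 arrays and 9.27 to 9.37 on the Pax6(5a) arrays, against 9.57 to 9.73 on the control arrays. Several of these 16 probes are of Dcn, so the mean weighs that gene more than the others. Single probes had log2 fold changes of -0.95 to 0.25 in the Pax6 line and -1.26 to 0.22 in the Pax6(5a) line, the lowest in each being Dcn. In the Pax6 line 3 of these markers were called lower (Pdgfra, Pdgfrb and Dcn) and in the Pax6(5a) line 2 (Lum and Dcn). The mean over the endothelial probes was 6.47 to 6.51 in the Pax6 line and 6.34 to 6.43 in the Pax6(5a) line, against 6.21 to 6.27 in the control line, where Cdh5 was the 1 member called (higher in both insert lines). The part of these shifts in the results was not tested. The single Pax6 probe was detected on no array, the Pax6 and Pax6(5a) arrays included. The position of that probe is not given in the sources used here, so it does not check the labels.

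Promoters are shown for the 4 pathway genes whose signal fell and for a pair of Id genes, because these carry the differences described below. They are RefSeq promoters on GRCm38.p6, 300 bases each, with 250 bases before the start of the gene and 50 after it, read in the direction of the gene. Capitals mark CAGAC, the box bound by Smad3 and Smad4, GGCGCC, a GC-rich element bound by BMP Smads, and TTCACGC, the core of the site bound by the paired domain of Pax6, each on either strand. Tgfbr1 (chr4:47352972-47353271, plus strand) has a second start in RefSeq at chr4:47385966-47386265, which is not printed. The window of that second start held CAGAC at -203. Acvr2b lies at chr9:119401928-119402227 (plus strand), Smad3 at chr9:63757945-63758244 (minus strand), Nbl1 at chr4:139092921-139093220 (minus strand), Id2 at chr12:25096043-25096342 (minus strand) and Id3 at chr4:136143572-136143871 (plus strand).
Tgfbr1: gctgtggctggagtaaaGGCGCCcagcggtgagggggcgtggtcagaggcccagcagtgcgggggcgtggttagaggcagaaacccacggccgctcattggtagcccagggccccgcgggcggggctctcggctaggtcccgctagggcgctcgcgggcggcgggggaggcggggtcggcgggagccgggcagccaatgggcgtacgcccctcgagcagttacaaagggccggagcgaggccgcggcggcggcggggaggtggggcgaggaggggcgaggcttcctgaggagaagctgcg
Acvr2b: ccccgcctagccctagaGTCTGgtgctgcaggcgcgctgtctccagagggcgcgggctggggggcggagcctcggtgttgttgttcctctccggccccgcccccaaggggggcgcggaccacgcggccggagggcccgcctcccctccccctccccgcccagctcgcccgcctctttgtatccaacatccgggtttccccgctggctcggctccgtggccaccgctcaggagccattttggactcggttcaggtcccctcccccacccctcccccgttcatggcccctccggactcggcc
Smad3: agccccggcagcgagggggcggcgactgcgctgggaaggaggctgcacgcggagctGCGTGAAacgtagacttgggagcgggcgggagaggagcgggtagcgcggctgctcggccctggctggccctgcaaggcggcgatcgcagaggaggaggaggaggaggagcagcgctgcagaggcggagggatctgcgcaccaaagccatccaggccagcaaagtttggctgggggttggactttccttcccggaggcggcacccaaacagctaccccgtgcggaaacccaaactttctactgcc
Nbl1: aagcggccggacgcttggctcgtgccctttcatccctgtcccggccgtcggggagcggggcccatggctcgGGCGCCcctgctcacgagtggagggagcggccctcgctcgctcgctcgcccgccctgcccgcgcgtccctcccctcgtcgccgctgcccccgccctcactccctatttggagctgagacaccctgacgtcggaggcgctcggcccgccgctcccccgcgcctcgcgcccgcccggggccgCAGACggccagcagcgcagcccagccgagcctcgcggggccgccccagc
Id2: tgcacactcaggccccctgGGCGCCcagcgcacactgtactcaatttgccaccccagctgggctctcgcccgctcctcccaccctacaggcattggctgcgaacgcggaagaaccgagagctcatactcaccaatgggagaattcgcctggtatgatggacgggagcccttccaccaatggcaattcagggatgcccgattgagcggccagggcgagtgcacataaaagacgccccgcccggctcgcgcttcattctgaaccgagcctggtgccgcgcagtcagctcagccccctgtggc
Id3: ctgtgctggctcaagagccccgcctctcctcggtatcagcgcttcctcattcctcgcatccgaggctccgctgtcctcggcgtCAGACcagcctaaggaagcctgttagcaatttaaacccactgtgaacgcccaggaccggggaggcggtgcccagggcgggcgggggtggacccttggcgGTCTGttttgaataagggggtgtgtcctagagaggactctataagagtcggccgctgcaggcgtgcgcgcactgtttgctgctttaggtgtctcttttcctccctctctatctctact
Of these 6 windows, 3 held CAGAC (Acvr2b, Nbl1 and Id3), 3 held GGCGCC (Tgfbr1, Nbl1 and Id2) and 1, that of Smad3, held TTCACGC. Of all 32851 RefSeq promoters of this length, 49.6% held CAGAC, 11.9% GGCGCC and 1.26% TTCACGC on either strand. The table listed 44 promoters for 35 of the 48 genes, of which 47.7% held CAGAC, 34.1% GGCGCC and 2.27% TTCACGC. The shorter Smad box GTCT, which every CAGAC match contains on the other strand, was in 84.1% of them and in 88% of all promoters. The 44 windows had a median GC content of 67.3%, against 52.7% over all promoters, and the 2 sets were not matched for it. A match is a run of letters and does not show binding.

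In the Pax6 line 4 pathway genes were lower than in control cells and none was higher: the receptors Tgfbr1 and Acvr2b, the signal-carrying Smad3 and the secreted antagonist Nbl1. They are 4 of 56 probes called lower, 7.14%, where 1.17% of all probes were called lower, and 0 of 56 called higher, where 0.841% of all probes were. The pathway genes were chosen with earlier results of these data known, so these shares are descriptions. All 4 were detected on at least 2 arrays, and of the 11195 such probes on the array 2.55% were called lower. Nbl1 met that filter only through the control arrays. The median log2 fold change over the 56 probes was -0.05, against 0.00 over all probes. Over the 31 pathway probes detected on at least 2 arrays it was -0.15, with 21 below 0, against 0.01 over all such probes, given as a description since that filter let some probes in through 1 line alone. At an unadjusted p under 0.05, 11 pathway probes were lower (19.6%) and 4 higher (7.14%), where 8.33% of all probes were lower and 8.81% higher. With median scaling in place of quantile normalization, 341 probes of the array were called lower and 154 higher, against 289 and 207, and 6 pathway probes were called, all lower.

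**Figure D1:**
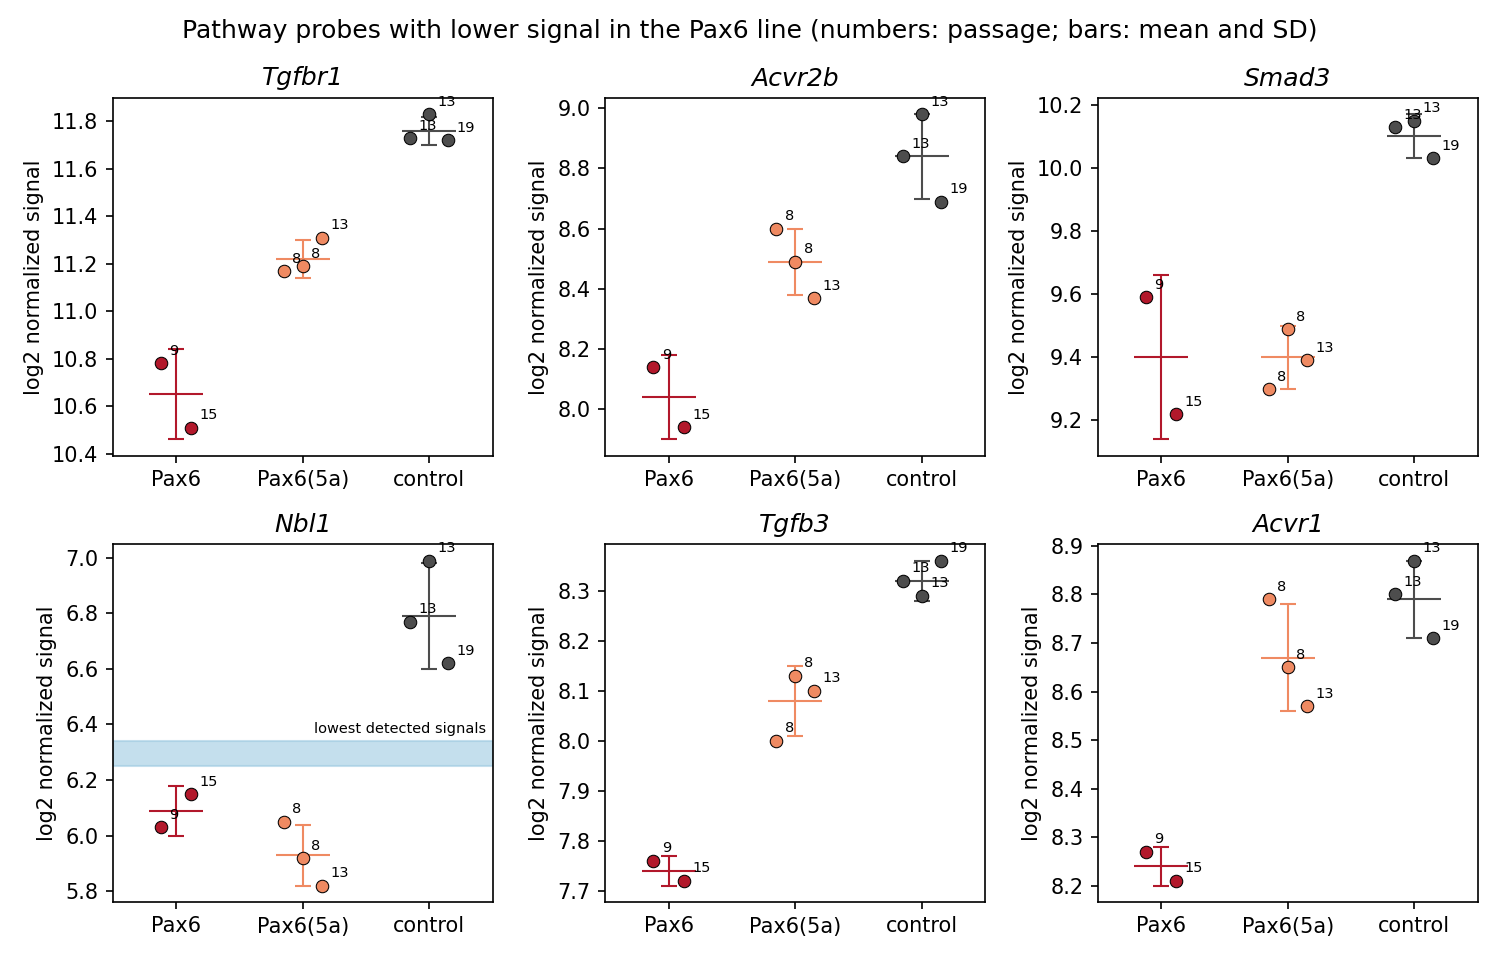
Log2 normalized signal of 6 pathway probes on each array of the Pax6, Pax6(5a) and control lines, with the passage beside each point and the mean and SD as bars; the blue band in the Nbl1 panel spans the lowest signals detected on the 8 arrays (6.25 to 6.34). The Pax6 arrays lie below all control arrays in each panel, and for Smad3 and Nbl1 the Pax6(5a) arrays lie at the level of the Pax6 arrays.

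Tgfbr1, the type I receptor of TGF-beta (probe ILMN_2602711), had log2 signals of 10.78 and 10.51 on the Pax6 arrays and of 11.17, 11.19 and 11.31 on the Pax6(5a) arrays, against 11.73, 11.83 and 11.72 on the control arrays. The 3 lines did not overlap, with Pax6 lowest and Pax6(5a) between. The log2 fold change was -1.11 in the Pax6 line (SE 0.10, adjusted p = 2.1e-05 by limma), a 2.16-fold lower signal. In the Pax6(5a) line it was -0.54 (SE 0.09, adjusted p = 0.0041), which passed the limit on p but, at 1.45-fold, not that on fold. That adjusted p rose to 0.094 with preparations of the same passage averaged, 0.021 with neqc and 0.023 with normexp background correction. Leaving out some single control or Pax6(5a) arrays raised it to 0.019 to 0.028. It stayed under 0.01 with the other normalizations and fits. The direct comparison of Pax6 with Pax6(5a) gave -0.57 (SE 0.10, adjusted p = 0.0095), again under the 1.5-fold limit. For that difference the adjusted p was 0.057 with preparations averaged, 0.044 with neqc and 0.047 with normexp. It stayed under 0.01 in some other settings, such as median scaling (0.0063). The difference was -0.71 or -0.44 when either Pax6 array was left out. Both other probes of Tgfbr1 were detected on no array, with signals of 5.80 to 6.15, so the change rests on 1 probe. In the Pax6 line this was the only one of the 4 calls kept under every alternative setting and with each array left out, with log2 fold changes of -1.25 to -0.97.

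Acvr2b, a type II receptor for activins and related ligands (ILMN_1230145), had signals of 8.14 and 7.94 on the Pax6 arrays and of 8.60, 8.49 and 8.37 on the Pax6(5a) arrays, against 8.84, 8.98 and 8.69 on the control arrays. Again the lines did not overlap and Pax6(5a) lay between. The log2 fold change was -0.80 in the Pax6 line (SE 0.11, adjusted p = 6.0e-04 by limma). In the Pax6(5a) line it was -0.35 (SE 0.10) and did not pass (adjusted p = 0.064), and the direct difference of -0.45 did not pass either (95% interval -0.68 to -0.21, adjusted p = 0.063). With passage number as a covariate the Pax6(5a) difference was -0.54 (adjusted p = 0.0038). With passage stage as a block it was -0.35 (adjusted p = 0.0096). Both stayed under the fold limit. Without the Pax6 array of passage 15 the adjusted p was 0.011, and with normexp background correction it was 0.012.

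Smad3, which carries TGF-beta and activin signals to DNA (ILMN_2772582), had signals of 9.59 and 9.22 on the Pax6 arrays and of 9.30, 9.49 and 9.39 on the Pax6(5a) arrays, against 10.13, 10.15 and 10.03 on the control arrays. Here the insert lines overlapped each other and both lay below every control array. The log2 fold change was -0.70 in the Pax6 line (SE 0.11, adjusted p = 0.0018 by limma) and -0.71 for Pax6(5a) (SE 0.10, adjusted p = 0.0013). The direct difference between the insert lines was 0.00, with a 95% interval of -0.23 to 0.24. Leaving out the Pax6 array of passage 15 reduced the difference in the Pax6 line to -0.52 and ended the call (adjusted p = 0.024). Leaving out either control array of passage 13 also ended it in both lines (adjusted p of 0.0104 to 0.011), as did leaving out the first Pax6(5a) array of passage 8 for that line (adjusted p = 0.012).

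Nbl1, a secreted antagonist of BMPs also known as Dan (ILMN_2777478), had signals of 6.03 and 6.15 on the Pax6 arrays and of 6.05, 5.92 and 5.82 on the Pax6(5a) arrays, against 6.77, 6.99 and 6.62 on the control arrays. It was detected on the 3 control arrays and on none of the others, where it has only an upper bound. Control cells were at least 1.38-fold higher than the Pax6 line and at least 1.43-fold higher than the Pax6(5a) line, when each undetected signal is set no lower than the dimmest detected probe of its array. The fit gave log2 fold changes of -0.71 in the Pax6 line (SE 0.11, adjusted p = 0.0019 by limma) and -0.86 for Pax6(5a) (SE 0.10, adjusted p = 3.9e-04), which exceed these bounds because they use the undetected signals as they are. The direct difference between the insert lines is between undetected signals. Leaving out either Pax6 array ended the call in that line (adjusted p = 0.028 without passage 9 and 0.0105 without passage 15).

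In the Pax6(5a) line Smad3 and Nbl1 were the 2 pathway probes called lower, 3.57% of 56, where 0.528% of all probes were (1.16% of the probes detected on at least 2 arrays). No pathway probe was called higher in this line, where 0.439% of all probes were. The median over the 56 probes was -0.03, against -0.00 over all probes, and over the 31 detected on at least 2 arrays it was -0.12, with 20 below 0, against -0.00 over all such probes. At passage 13, the 1 passage read in both lines, the Pax6(5a) array differed from the mean of the control arrays by -0.75 for Smad3 and -1.06 for Nbl1, single differences with no test. Uncalled members differed there as well, in both directions. Among them were Acvr2b (-0.54), the detected probe of Tgfbr1 (-0.47), Id2 (0.78) and Id3 (0.69). With preparations of the same passage averaged, both calls were lost for Pax6(5a) (adjusted p of 0.04 for Smad3 and 0.013 for Nbl1) and for Pax6 (0.018 and 0.015), and with neqc background correction that of Smad3 was lost in both (0.016 for Pax6(5a) and 0.015 for Pax6). With normexp, all 4 of these calls were lost (adjusted p of 0.011 to 0.021). Both comparisons use the same control arrays, so a shared call in them is not 2 independent observations. In the direct comparison of Pax6 with Pax6(5a) limma called 0 of 56 pathway probes in either direction, where 0.341% of all probes were called lower and 0.228% higher, and at an unadjusted p under 0.05 it had 7 lower (12.5%) and 4 higher (7.14%), where 5.66% of all probes were lower and 5.95% higher.

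**Figure D2:**
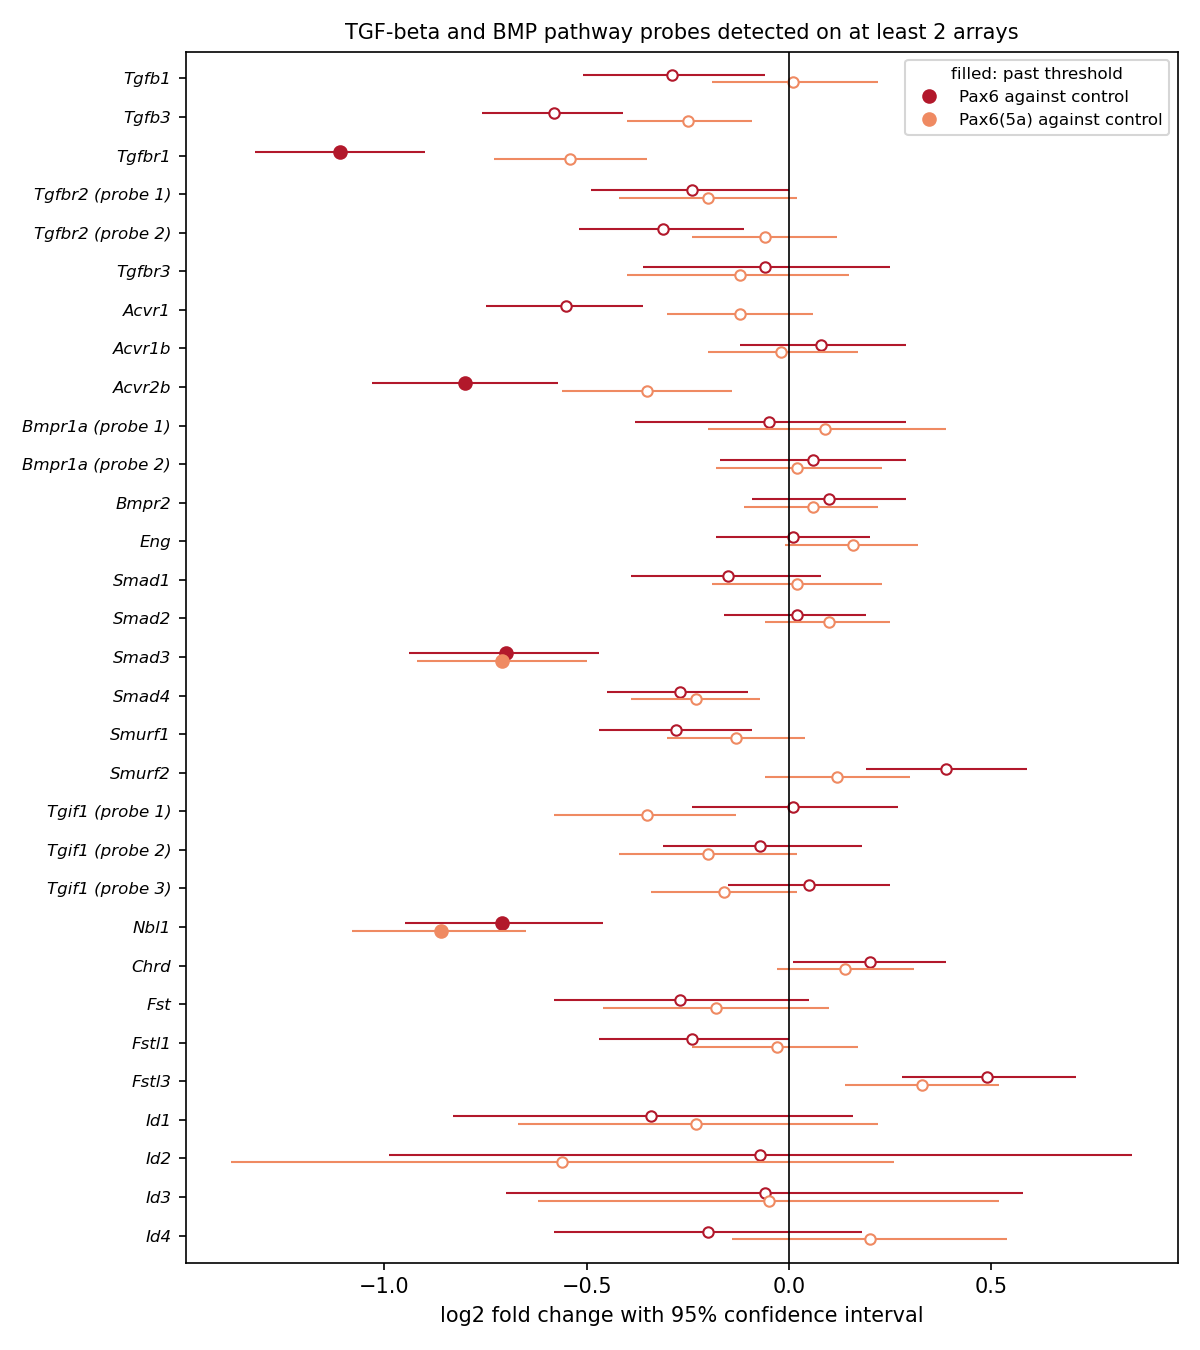
Log2 fold change with its 95% confidence interval for each pathway probe detected on at least 2 arrays, in the Pax6 line (red) and the Pax6(5a) line (orange) against the control line; filled points passed the threshold. The filled points are Tgfbr1 and Acvr2b in the Pax6 line and Smad3 and Nbl1 in both lines, all to the left of 0.

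Among the ligands, Tgfb1 and Tgfb3 were detected on all 8 arrays. Tgfb3 had signals of 7.76 and 7.72 on the Pax6 arrays and of 8.00, 8.13 and 8.10 on the Pax6(5a) arrays, against 8.32, 8.29 and 8.36 on the control arrays. The lines did not overlap, but the log2 fold change of -0.58 in the Pax6 line (SE 0.08, adjusted p = 7.5e-04 by limma) lay just under the fold limit. It passed that limit in some alternative settings, such as median scaling (-0.66). Tgfb1, the ligand most studied in fibroblasts, had signals of 8.38 and 8.34 in the Pax6 line and 8.50 to 8.76 in the Pax6(5a) line, against 8.49 to 8.78 in the control line, and did not pass (adjusted p = 0.16 for Pax6). Bmp4 was detected on 1 array only, that of Pax6 passage 15, at 6.55, where the other 7 arrays had 5.57 to 5.94. Tgfb2, Inhbb, Bmp2, Bmp6, Bmp7, Gdf10 and Gdf11 were detected on no array.

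Among the receptors, type II receptors of TGF-beta, activin and BMP and several type I receptors were detected in every line. Acvr1, a type I receptor used by BMPs and activins, had signals of 8.27 and 8.21 on the Pax6 arrays and of 8.79, 8.65 and 8.57 on the Pax6(5a) arrays, against 8.80, 8.87 and 8.71 on the control arrays. Both Pax6 arrays lay below all the rest, while Pax6(5a) and control overlapped. The log2 fold change in the Pax6 line was -0.55 (SE 0.09, adjusted p = 0.0026 by limma), under the fold limit, and the direct difference from Pax6(5a) was -0.44 (SE 0.09, adjusted p = 0.03). Tgfbr2, the type II partner of Tgfbr1, had 1 probe detected everywhere, with signals of 10.06 and 10.13 in the Pax6 line and 10.27 to 10.45 in the Pax6(5a) line, against 10.28 to 10.48 in the control line. Its difference of -0.31 in the Pax6 line did not pass (adjusted p = 0.067).

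The BMP receptors Bmpr1a and Bmpr2 and the activin type I receptor Acvr1b were not called in any comparison. The detected probe of Bmpr2 had signals of 6.64 and 6.72 in the Pax6 line and 6.52 to 6.70 in the Pax6(5a) line, against 6.56 to 6.62 in the control line, and its fold change in the Pax6 line had a 95% interval of -0.09 to 0.29. Both probes of Bmpr1a were detected on all arrays, with log2 fold changes of -0.05 and 0.06 in the Pax6 line and 0.09 and 0.02 in the Pax6(5a) line. The coreceptors Tgfbr3 (betaglycan) and Eng (endoglin) were near the limit of detection, on 6 and 4 arrays. Acvr2a, Acvrl1, Bmpr1b and the decoy receptor Bambi were detected on no array.

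None of the other Smads with a probe was called. Smad2, which shares the receptors of Smad3, had signals of 8.46 and 8.52 in the Pax6 line and 8.51 to 8.62 in the Pax6(5a) line, against 8.45 to 8.50 in the control line. Its log2 fold change was 0.02 in the Pax6 line, with a 95% interval of -0.16 to 0.19. Smad4, the common partner, had signals of 11.01 and 11.09 in the Pax6 line and 11.05 to 11.13 in the Pax6(5a) line, against 11.27 to 11.35 in the control line. Both insert lines lay below every control array, but the differences of -0.27 and -0.23 did not pass (adjusted p of 0.066 and 0.11). The detected probe of the BMP Smad Smad1 gave -0.15 for Pax6 and 0.02 for Pax6(5a), within the overlap of the lines.

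Of the inhibitors inside the cell, Smad7, Ski and Skil were detected on no array. The ubiquitin ligase Smurf2, which marks receptors and Smads for degradation, had signals of 8.57 and 8.39 in the Pax6 line and 8.11 to 8.32 in the Pax6(5a) line, against 8.03 to 8.13 in the control line. Its log2 fold change of 0.39 in the Pax6 line had an adjusted p of 0.023 by limma and was not called. Smurf1, a related ligase, gave -0.28 in the Pax6 line (adjusted p = 0.086). The corepressor Tgif1 had 3 detected probes with log2 fold changes of -0.07 to 0.05 in the Pax6 line and -0.35 to -0.16 in the Pax6(5a) line, none called.

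Of the secreted antagonists other than Nbl1, the BMP antagonists Grem1 and Nog were detected on no array. Fstl3, a follistatin-like binder of activins, had signals of 7.03 and 7.02 in the Pax6 line and 6.82 to 6.91 in the Pax6(5a) line, against 6.34 to 6.66 in the control line. The lines did not overlap, and the log2 fold change of 0.49 in the Pax6 line (SE 0.10, adjusted p = 0.0088 by limma) passed the limit on p but not that on fold. Chrd (chordin), Fst (follistatin) and Fstl1 were detected on all arrays and gave differences of -0.27 to 0.20 in the Pax6 line, none called.

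The Id genes, which encode partners that keep basic helix-loop-helix factors off DNA, passed no test between the lines in the fit without passage. Of the 4, 3 were higher at the later passage of each line. This was noticed in the values and then tested on the same arrays, as later against earlier passage beside the line in 1 fit. Id2 had a signal of 7.64 at passage 15 of the Pax6 line, against 6.79 at passage 9. It had 7.68 at passage 13 of the Pax6(5a) line, against 6.32 and 6.17 at passage 8, and 8.06 at passage 19 of the control line, against 6.85 and 6.96 at passage 13. The later array was above the earlier ones in all 3 lines, with a log2 difference of 1.17 (SE 0.09, adjusted p = 1.3e-05 by limma), or 2.25-fold.

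Id3 had a signal of 9.80 at the later passage of the Pax6 line, against 8.90 at the earlier. It had 9.84 in the Pax6(5a) line, against 9.07 and 9.19, and 9.94 in the control line, against 8.98 and 9.32, a fitted difference of 0.79 (SE 0.08, adjusted p = 2.8e-04 by limma). Id1 had 11.01 in the Pax6 line, against 10.18, then 11.06 in the Pax6(5a) line, against 10.54 and 10.51, and 11.27 in the control line, against 10.78 and 10.75, a fitted difference of 0.60 (SE 0.07, adjusted p = 6.7e-04). Both showed the later array highest in every line. Id4, detected on 3 arrays, moved up in the insert lines and down in the control line and was not called (difference 0.19, adjusted p = 0.54). Id1, Id2 and Id3 were 3 of 56 pathway probes called higher at the later passage, where 0.11% of all probes were, and 0 of 56 were called lower, where 0.114% of all probes were. At an unadjusted p under 0.05 by limma, 6 pathway probes were lower and 6 higher (10.7% each), where 7.51% of all probes were lower and 7.05% higher.

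Across lines, Id2 had 6.17 and 6.32 at passage 8, 6.79 at passage 9, 6.85 to 7.68 at passage 13, 7.64 at passage 15 and 8.06 at passage 19, so that stage within a line and the passage number cannot be told apart over most of the range. Passage 13 was the later stage of the Pax6(5a) line, with Id2 at 7.68, and the earlier stage of the control line, with Id2 at 6.85 and 6.96. Day of harvest, cell density and serum lot are not given in the sources used here, and stage cannot be told apart from those either. With the neqc or normexp background correction all 3 calls were lost (adjusted p of 0.024 to 0.032), though the differences stayed at 0.61 to 1.67. Id1 also fell under the fold limit without either Pax6 array (0.52 in both cases). The comparison of lines had no term for stage, and the later passage made up a larger share of the Pax6 arrays than of either other line's. It had a standard error of 0.42 for Id2 in the Pax6 line. The adjusted p of the 4 Id probes by limma was 0.55 or more in each comparison with control cells. With passage number as a covariate, Id3 was called higher in the Pax6(5a) line.

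**Figure D3:**
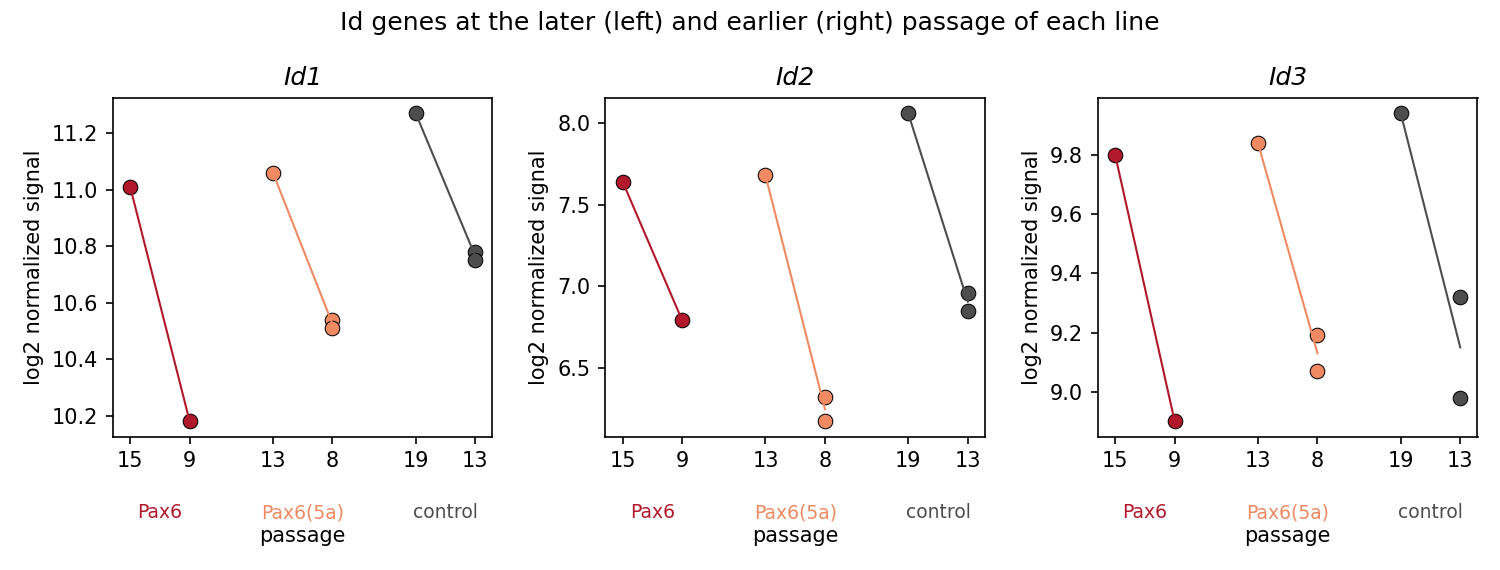
Log2 normalized signal of Id1, Id2 and Id3 on each array, with the later passage of each line to the left of the earlier one and a line joining their means. In each of the 3 lines and for each gene the later array is above every earlier array.

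Other genes of the pathway were taken from lists of further ligands, coreceptors, extracellular modulators, intracellular partners and known targets, 115 genes of which 104 had a probe (155 probes). In the Pax6 line 8 of the 104 genes were lower and 2 higher, in the Pax6(5a) line 2 were lower and 3 higher, and in the direct comparison 1 was lower and none higher. In the Pax6 line these were 11 probes lower and 2 higher of 155, or 7.1% and 1.29%, against the 1.17% and 0.841% of all probes given above. In the Pax6(5a) line they were 4 probes lower and 4 higher (2.58% each), against 0.528% and 0.439% of all probes. In the direct comparison 2 probes were lower (1.29%) and 0 higher, against 0.341% and 0.228% of all probes. The lists were chosen with earlier results of these data known, so these shares are descriptions and do not show an excess. In the Pax6 line Dcn, Fn1 and Tgfbi each gave more than 1 of the lower probes. None of the 22 further ligands, 6 coreceptors or 9 BMP targets was called in any of the 3 comparisons, and the called genes were extracellular modulators, TGF-beta targets and 1 intracellular partner.

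Of the extracellular modulators, Ltbp2, named as a member of the latent TGF-beta binding protein family, had signals of 9.12 and 9.35 in the Pax6 line. It had 9.86 to 9.95 in the Pax6(5a) line, against 10.63 to 11.18 in the control line. The lines did not overlap, and the log2 fold changes were -1.59 (SE 0.14, adjusted p = 2.6e-05 by limma) and -0.91 (SE 0.13, adjusted p = 0.0015). Crim1, a membrane protein that binds BMPs, went the other way, with 9.42 and 9.73 in the Pax6 line and 8.91 to 9.11 in the Pax6(5a) line, against 8.16 to 8.31 in the control line. Its log2 fold changes were 1.35 (adjusted p = 7.3e-06) and 0.76 (adjusted p = 6.4e-04). Dcn (decorin), a matrix proteoglycan that binds TGF-beta, was called lower by 2 probes in the Pax6 line (-0.95 and -0.93) and by 3 in the Pax6(5a) line (-1.26, -1.21 and -0.82), and it is also 1 of the fibroblast markers. Twsg1, a BMP-binding modulator, was lower in the Pax6 line (-0.61, adjusted p = 0.006), a call that was lost on leaving out any one of the control or Pax6 arrays or the first Pax6(5a) array (adjusted p of 0.013 to 0.07). The calls of Dcn in the Pax6 line were both lost without the array of passage 9 (adjusted p of 0.066 and 0.012), and the first also without any one control array (0.012 to 0.021). The -0.82 of the third Dcn probe in the Pax6(5a) line was lost without any one control array or either array of passage 8 (0.017 to 0.032), and the call of Ltbp2 in that line without the first array of passage 8 (0.013). The Pax6(5a) calls of Ltbp2 and Crim1 were also lost when same-passage preparations were averaged (adjusted p of 0.028 for Ltbp2 and 0.026 for Crim1) and with normexp (0.035 and 0.014), and that of Ltbp2 with neqc (0.024). With neqc every Dcn call but the -1.21 was lost (0.012 to 0.043). The intracellular partner called, Ctdsp2, a phosphatase that acts on the linker of Smads, was lower in the Pax6 line, at a log2 fold change of -0.67 (SE 0.08, adjusted p = 2.9e-04).

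Of the 21 known TGF-beta targets with a probe, 4 were called lower and 1 higher in the Pax6 line. In the Pax6(5a) line 0 were lower and 2 higher, and the rest were not called. Of their 31 probes 6 were lower and 1 higher in the Pax6 line, where 1.17% and 0.841% of all probes were. In the Pax6(5a) line 0 of the 31 were lower and 3 higher, where 0.528% and 0.439% of all probes were. This list too was chosen with earlier results known. Ccn2 (connective tissue growth factor) had signals of 10.56 and 10.58 in the Pax6 line and of 10.29, 10.39 and 9.80 in the Pax6(5a) line, against 8.23, 8.24 and 7.68 in the control line. Both insert lines lay far above every control array, with log2 fold changes of 2.52 (SE 0.18, adjusted p = 3.8e-06 by limma) and 2.11 (SE 0.16, adjusted p = 1.4e-05). Tgfbi, a matrix protein named for its induction by TGF-beta, was lower in the Pax6 line by both probes, the brighter at 6.58 and 7.35 in the Pax6 line and 7.65 to 7.95 in the Pax6(5a) line, against 8.40 to 8.50 in the control line (-1.49 for Pax6, adjusted p = 1.7e-04). The dimmer probe was undetected in the Pax6 line, so that control cells were at least 1.63-fold higher (adjusted p = 4.3e-04). Fn1 (fibronectin, -0.97 and -1.26 by its called probes), Vegfa (-1.32) and Snai2 (-0.66), a repressor of epithelial genes, were also lower in the Pax6 line. In the Pax6(5a) line the same probes lay below control too, though none was called. Tgfbi gave -0.65 and -0.47, Fn1 -0.45 and -0.51, Vegfa -0.54 and Snai2 -0.43 (adjusted p of 0.0075 to 0.24 by limma). Between the insert lines Fn1 and Snai2 had an adjusted p of 0.071 to 0.29. The -1.26 of Fn1 was no longer called without either control array of passage 13 or either Pax6 array (adjusted p of 0.027 to 0.047). With normexp the Pax6 calls of Tgfbi (0.014 for the brighter probe), Fn1 (0.015 and 0.075) and Vegfa (0.015) were lost. In the Pax6 line the calls of Ltbp2, Crim1, Ctdsp2, Ccn2 and Snai2, and in the Pax6(5a) line that of Ccn2, were kept under every alternative normalization and fit and with each array left out.

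Acta2, smooth muscle actin and a marker of contractile fibroblasts, was the 1 gene of these lists called between the insert lines. Its brightest probe had signals of 11.67 and 12.34 in the Pax6 line and of 13.27, 13.29 and 13.09 in the Pax6(5a) line, against 12.43, 12.51 and 12.35 in the control line. On this probe the Pax6(5a) arrays lay above all others, and the Pax6 arrays lay below every control array, the nearer at 12.34 against 12.35. The log2 fold change was -1.22 for Pax6 against Pax6(5a) (SE 0.15, adjusted p = 0.0013 by limma), 0.79 for Pax6(5a) against control (SE 0.14, adjusted p = 0.0059) and -0.43 for Pax6 against control (adjusted p = 0.14). The other probes gave -0.86 and -0.48 between the insert lines, of which the first was called. In the Pax6 line against control they gave -0.20 and 0.11, neither called, and on both the Pax6 and control arrays overlapped. With preparations of the same passage averaged, the call of the brightest probe between the insert lines was lost (adjusted p = 0.027), as it was with neqc or normexp background correction. Its call against control was lost without any one control array or either Pax6(5a) array of passage 8 (adjusted p of 0.02 to 0.035). That of the third probe (0.59) was lost without either control array of passage 13 (0.011 and 0.013) or the Pax6(5a) array of passage 13 (0.53, under the fold limit). The -0.86 of the second probe was lost without either control array of passage 13, either Pax6(5a) array of passage 8 or the Pax6 array of passage 9 (0.013 to 0.11).

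**Figure D4:**
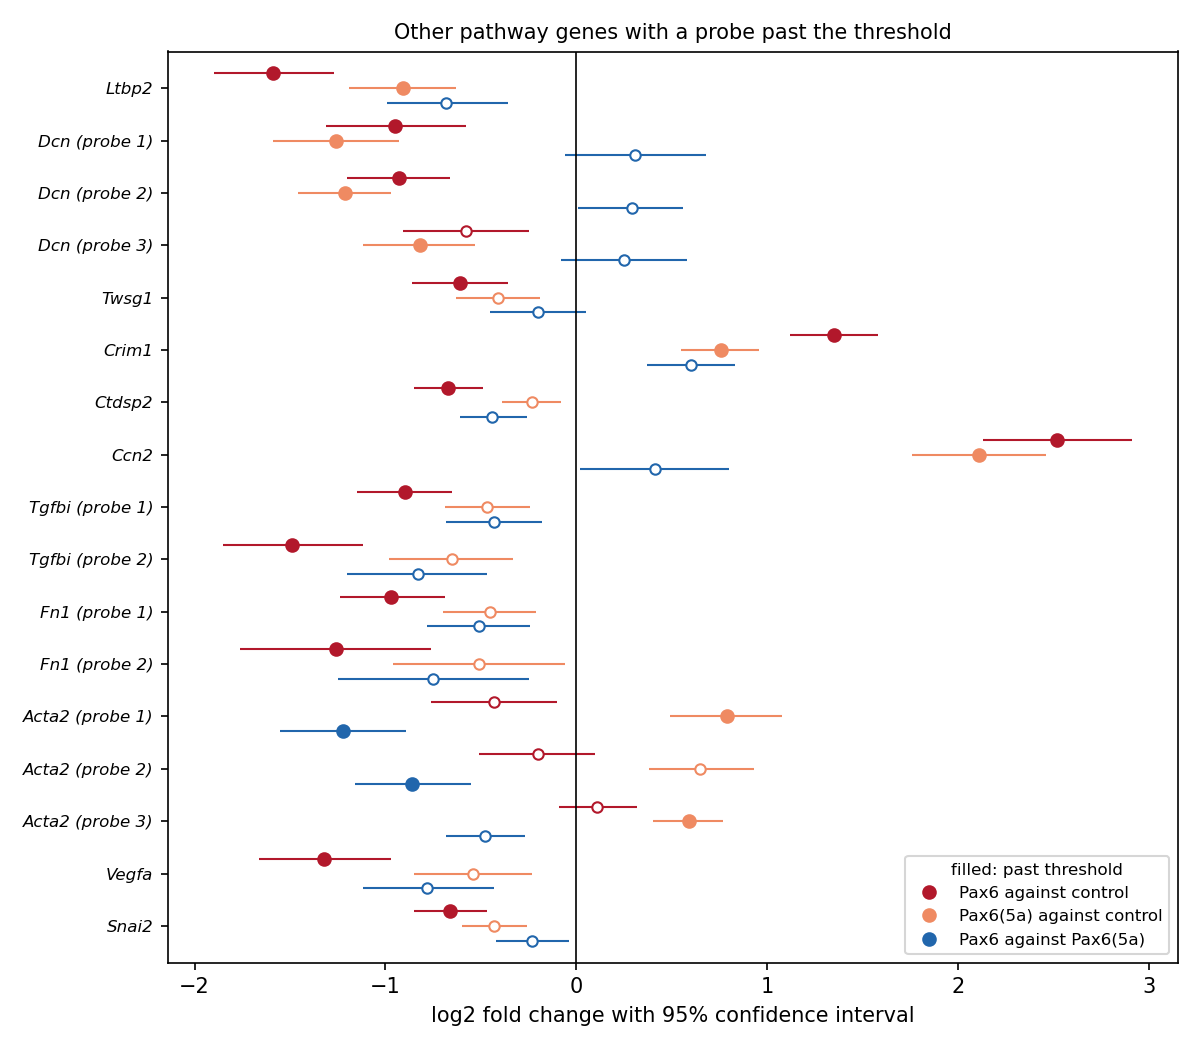
Log2 fold change with its 95% confidence interval for each probe of the other pathway genes that passed the threshold in any comparison: Pax6 against control (red), Pax6(5a) against control (orange) and Pax6 against Pax6(5a) (blue); filled points passed. Ccn2 and Crim1 lie right of 0 in both insert lines, most others lie left, and Acta2 lies left of 0 in the direct comparison.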

How the data were processed

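RNA from 3 Flp-In-3T3 lines was read on 8 Mouse Ref-8 V1.1 arrays of Illumina, with 1 preparation on each. The authors deposited signal intensities, not normalized and quantile normalized, with detection p-values computed before deposit; the reader software and any earlier background correction are not given in the sources used here. Repeating quantile normalization on the deposited intensities gave the authors' values within a relative 5.0e-10, and no signal was 0 or below. Values were put on the log2 scale with no background correction.

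A single linear model of the 8 arrays, with 1 coefficient per line, was fitted with limma (version 3.58.1, R version 4.3.3), and two-sided moderated tests were adjusted by Benjamini-Hochberg over the 24613 probes, each comparison separately. The threshold, an adjusted p under 0.01 and at least 1.5-fold, follows the study's methods. Passage stage was a further term in the fit of later against earlier arrays, which was added after seeing the data. Of the probes, 20984 name 1 gene, 1 several and 3628 none, by the platform annotation with symbols updated through Entrez identifiers. Lower bounds set an undetected signal no lower than the dimmest detected probe of its array (6.25 to 6.34). The number of arrays limits the precision. The script was tested on simulated data.

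The members, lists, tests and alternatives were chosen with earlier results of these data known. All 48 members are accounted for, those with a called probe by their values on every array, and genes of the other lists are named where a probe passed the threshold; Tgfb3, Acvr1, Fstl3, Smurf2 and the Id genes were given in full after their values were seen. Alternatives were normexp (offset 50) or neqc (offset 16) background correction, cyclic loess, median scaling, the authors' table, a filter on detection (2 or more arrays), a robust prior with a variance trend, a fit without the line not compared, passage as a covariate or block, preparations averaged, culture as a random block (correlation 0.242), the replicate number as a block, other thresholds, the brightest probe of each gene, and each array left out. Figures were drawn with matplotlib 3.10.9 in Python 3.11.15.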

Additional observations from a re-analysis of the deposited data

Results flagged for a closer look

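For 12 probes of 10 genes, pathway members and other pathway genes together, the Pax6 line differed from the Pax6(5a) line by the direct comparison of Pax6 with Pax6(5a) in limma (adjusted p under 0.05 over all probes, with no limit on fold). Among the pathway members these were Tgfbr1 (-0.57 on the log2 scale, adjusted p = 0.0095) and Acvr1 (-0.44, adjusted p = 0.03), both lower in the Pax6 line. Among the other pathway genes Acta2 was lower in the Pax6 line by 3 probes (-1.22, -0.86 and -0.48, adjusted p of 0.0013, 0.0082 and 0.025). Tgfbi (-0.83, adjusted p = 0.026), Vegfa (-0.78, adjusted p = 0.027), Ltbp2 (-0.68, adjusted p = 0.033) and Ctdsp2 (-0.44, adjusted p = 0.017) were also lower, and Crim1 was higher (0.60, adjusted p = 0.012). Tpm1 (-0.56, adjusted p = 0.016) and Tagln (-0.45, adjusted p = 0.045), both genes of the actin cytoskeleton, were lower too and did not reach the stricter threshold of the report in any comparison of lines. At this limit 2 of the 56 pathway probes were lower and 0 higher, and 9 of the 155 other pathway probes were lower and 1 higher. Of all 24613 probes 217 were lower and 195 higher. The Pax6 line was read on 2 arrays and the Pax6(5a) line on 3, with no passage in common, so insert, line and passage cannot be told apart here.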

How the results depend on the processing

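The count of pathway probes called in the Pax6 line, 4, was 2 with normexp, 2 at an adjusted p under 0.001 and 1.7-fold, 8 at an adjusted p under 0.05 with no fold limit, and 1 to 5 with each array left out (1, Tgfbr1, without the Pax6 array of passage 15). In the Pax6(5a) line the count of 2 was 1 with neqc, 0 with normexp, 4 with passage as a covariate (Tgfbr1 lower and Id3 higher in addition), 0 with preparations averaged, 1 at the stricter threshold, and 1 to 2 with each array left out. Between the insert lines the count of 0 was 1 with median scaling (Tgfbr1) and 2 with no fold limit. Median scaling called 105 probes of the array lower and 45 higher there, against 84 and 56. With passage as a covariate the count in the Pax6 line was 6, with Acvr1 lower and Bmp4, detected on 1 array, higher in addition.

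The count of other pathway genes was 5 with normexp in the Pax6 line, against 10. In the Pax6(5a) line it was 2 with normexp, 8 with passage as a covariate, 2 with preparations averaged, 2 at the stricter threshold and 11 with no fold limit, against 5. Between the insert lines it was 0 with neqc, with normexp, with preparations averaged and at the stricter threshold, 2 with only these lines' arrays, 3 with the passage covariate, 4 with the passage block, 8 with no fold limit and 1 to 2 with each array left out, against 1.

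The replicate number does not pair arrays by design, and same-numbered arrays correlated at -0.209 to 0.255 in their deviations from the line means. Arrays of the same passage stage in different lines correlated at 0.087 to 0.284, and those of different stages at -0.284 to -0.099. Deviations within a line balance out, so these values are not independent of one another. With the replicate block the counts of pathway probes were 5, 2 and 0, and those of other pathway genes 9, 7 and 5, in the Pax6, Pax6(5a) and direct comparisons. Bounds for Nbl1 were 1.53-fold and 1.55-fold with detection at p under 0.05. Over the single genes named, 677 values under an alternative stayed on the same side of the threshold, 111 lost a call, 16 gained one and 0 turned direction. The 677 include the authors' table, which could not differ, and comparisons with no call to lose, such as those of Smurf2 and Fstl3. They are therefore not a measure of how stable the calls are. Causes of the shifts in these counts were not tested.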
